A study of Caenorhabditis elegans with 2 samples.

Results

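The promoters of the intraflagellar transport A (IFT-A) genes were examined for binding of FKH-8, a forkhead transcription factor, in first-stage (L1) larvae of the nematode Caenorhabditis elegans. The genes were che-11, daf-10, dyf-2, ifta-1 and ift-43, chosen by name as 5 of the 19973 nuclear protein-coding genes of the assembly WBcel235, which is the same sequence as ce11. The study has 1 group with 2 biological replicates: mixed-sex whole larvae of strain OP652 (unc-119(tm4063) III; wgIs652), taken 6 hours after synchronization from L1 larvae that were starved after bleaching. All of them carry a stably expressed transgene whose product is FKH-8 fused at its C terminus to GFP-FLAG, in the unc-119 mutant background. Chromatin immunoprecipitation with sequencing (ChIP-seq) recovered DNA bound by the tagged protein. The antibody is against GFP by the sample description, but the label for the antibody reads fkh-8. The control that the labels list was not used here. Ciliated sensory neurons are a minority of the cells of a larva, so a peak cannot be assigned to a cell type, and a lower signal from fewer bound cells cannot be told apart from less binding per cell.

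Intraflagellar transport builds and maintains cilia. IFT-B particles are carried outward along the axoneme by kinesin motors, and IFT-A particles serve the return journey powered by dynein and the entry of membrane proteins into the cilium. In C. elegans the only ciliated cells are sensory neurons, and mutants of several IFT-A genes have shortened cilia with transport proteins piled up inside them. Many ciliary genes of the worm carry an X-box, the site bound by the RFX factor DAF-19, close to their 5′ end, and FKH-8 is known to act beside DAF-19 on such genes.

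Every deposited peak has the authors' own signal value of unstated scale, so signal was read only within a list, together with its rank (1 for the highest). Replicate 1 had 19354 peaks, replicate 2 had 21452 and the pooled replicates had 17956. A shorter list of 4963 peaks was deposited as thresholded by the irreproducible discovery rate (IDR), and its peaks are called reproducible here. That reproducible list is the top 4963 of the pooled list and ends at a signal of 94.9. Membership therefore follows pooled signal, and a member need not rank high in each replicate. The best 4963 peaks of each replicate end at 48.2 in replicate 1 and 49.1 in replicate 2. A gene was called when its promoter window, which reaches from 1000 bp before its 5′ end to 200 bp past it, held the summit of a peak in the reproducible list. Sequencing depth is unknown because the files hold no read counts.

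FKH-8 peaks were reproducible at 4 of the 5 IFT-A genes, namely daf-10, dyf-2, ifta-1 and ift-43, where 13.8% of all coding genes were called. The same 4 genes were called from the best peaks of replicate 1 alone, which called 13.5% of coding genes, and from those of replicate 2 alone, which called 13.8%. The fifth, che-11, had a weaker peak in each replicate. The remaining known IFT-A gene, ift-139, was not among the 5 and had no promoter summit in any list. Sequence at the peaks is given next because the position of the X-box relative to the summit differs between the genes.

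Each line below is read on the strand of its gene and covers up to 100 bp on either side of a summit. A line stops where it meets annotated untranslated bases, and bases beyond them are left out too. The line of ift-43 thus stops inside the neighbouring gene mdt-26, without the bases between mdt-26 and ift-43. All 5 genes lie on the minus strand. Capitals mark exact matches to the X-box, TAAACA (a forkhead core), GACGC (an alternative forkhead core) or GAGAGA (a comparison motif), each searched on both strands. Sequence is from the RefSeq genome on ce11.
ifta-1, summit 37 bp upstream, chrX:5552753-5552889, minus strand: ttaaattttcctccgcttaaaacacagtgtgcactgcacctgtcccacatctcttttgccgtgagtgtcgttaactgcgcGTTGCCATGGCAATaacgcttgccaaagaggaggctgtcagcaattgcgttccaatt
dyf-2, summit 69 bp upstream, chrIII:13686414-13686614, minus strand: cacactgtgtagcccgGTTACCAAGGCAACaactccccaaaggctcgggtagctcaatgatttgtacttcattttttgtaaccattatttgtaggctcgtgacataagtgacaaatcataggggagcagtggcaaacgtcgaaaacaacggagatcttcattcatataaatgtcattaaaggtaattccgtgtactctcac
daf-10 near peak, summit 100 bp upstream, chrIV:9146212-9146333, minus strand: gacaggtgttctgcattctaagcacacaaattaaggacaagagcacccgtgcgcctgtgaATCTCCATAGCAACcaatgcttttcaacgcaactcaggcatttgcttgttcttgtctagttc
daf-10 far peak, summit 915 bp upstream, chrIV:9147026-9147226, minus strand: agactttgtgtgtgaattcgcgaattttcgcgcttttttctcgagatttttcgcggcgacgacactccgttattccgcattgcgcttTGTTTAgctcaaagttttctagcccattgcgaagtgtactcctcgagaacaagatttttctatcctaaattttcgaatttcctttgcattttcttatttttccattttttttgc
ift-43, summit 437 bp upstream, chrII:5661194-5661323, minus strand: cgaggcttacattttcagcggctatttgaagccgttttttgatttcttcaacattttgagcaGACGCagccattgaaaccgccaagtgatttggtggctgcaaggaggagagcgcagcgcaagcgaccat
che-11, pooled summit 72 bp upstream, chrV:12150708-12150879, minus strand: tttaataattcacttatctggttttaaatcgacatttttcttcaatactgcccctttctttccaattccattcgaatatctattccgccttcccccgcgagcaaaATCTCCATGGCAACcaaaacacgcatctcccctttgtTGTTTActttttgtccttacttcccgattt
An X-box match stands in capitals in the lines of ifta-1, dyf-2, daf-10 (near peak) and che-11. The capitals TGTTTA, in the daf-10 far peak and at che-11, are TAAACA on the other strand, and GACGC stands in the line of ift-43. No 2 of these matches overlap.

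ift-43 (WBGene00016121, chromosome II, 5659881 to 5660786) encodes the small IFT43 subunit of the particle and had the strongest promoter peak of the 5. Its signal was 223 in replicate 1 (rank 404) and 201 in replicate 2 (rank 600). In the pooled and reproducible lists it was 414 (rank 514). Few peaks were higher, 2.08% of those in replicate 1 and 2.79% in replicate 2. The summit lay 437 bp upstream of ift-43 in replicate 1 and 413 bp in replicate 2, a mean of 425 ± 17.0 bp (SD, n = 2). This position is not between genes. It is in coding sequence of mdt-26, a gene for a Mediator subunit that starts 394 bp from ift-43 and runs the other way, and the pooled summit is 42 bp inside mdt-26. The peak therefore belongs to the windows of both genes, and mdt-26 is the nearer. A second reproducible peak lay in an intron of mdt-26, 1137 bp upstream of ift-43 and outside its window. That peak was higher still, with a signal of 230 in replicate 1 (rank 378), 230 in replicate 2 (rank 428) and 458 in the pooled list (rank 402).

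ifta-1 (WBGene00016935, chromosome X, 5545587 to 5552752) encodes the worm's IFT121 subunit, a WD-repeat protein of the IFT-A particle. Its promoter peak had a signal of 177 in replicate 1 (rank 680) and 195 in replicate 2 (rank 639). In the pooled list it was 368 (rank 681). The order of ift-43 over ifta-1 was the same in both replicates, but in replicate 2 the values differed little. The summit stood at almost the same base in both replicates, 38 bp and 36 bp upstream, a mean of 37 ± 1.41 bp (SD, n = 2). No other coding gene had this summit in its window, and the next coding gene upstream, C38C5.1, begins 5302 bp away, against a median upstream gap of 1156 bp over 19968 coding genes. The peak was also narrow, at 113 bp in replicate 1, 167 bp in replicate 2 and 186 bp in the pooled list, where the usual widths are 390, 420 and 416 bp. Farther upstream in the same gap were 2 more reproducible peaks, 2524 bp (signal 233, rank 1518) and 2726 bp (signal 158, rank 2625) from ifta-1. The intervals of these peaks overlap (5555068 to 5555483 and 5555270 to 5555685), so they cover 1 continuous stretch. Neither lay in the window of any coding gene, and both had counterparts among the best peaks of each replicate.

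dyf-2 (WBGene00001118, chromosome III, 13674879 to 13686445) encodes the IFT144 subunit, another large WD-repeat protein of the particle. The signal was 134 in replicate 1 (rank 1159), 129 in replicate 2 (rank 1348) and 262 in the pooled list (rank 1238). Of all peaks, 5.98% were higher in replicate 1 and 6.28% in replicate 2. The summit differed more between the replicates than at the other 3 called genes, at 130 bp upstream in replicate 1 and 69 bp in replicate 2 and the pooled list. That gap of 61 bp compares with a median of 19 bp (interquartile range 7 to 41 bp) between replicate summits over 4960 reproducible peaks. The peak lies in the 823 bp between dyf-2 and cul-2, a divergent gene for a cullin, and the window of cul-2 also holds the summit, 755 bp from the start of cul-2. A weaker peak in the 5′ untranslated region of cul-2, 939 bp upstream of dyf-2, had a pooled signal of 77.4 (rank 6312) and missed the reproducible list.

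daf-10 (WBGene00000906, chromosome IV, 9136933 to 9146211) encodes the IFT122 subunit; it was named for the failure of mutants to form dauer larvae normally. It had 2 reproducible peaks in its promoter window, and 2 or more were found at 111 of the 2752 called coding genes (4.03%). The stronger, far peak had a signal of 85.7 in replicate 1 (rank 2316), 82.1 in replicate 2 (rank 2573) and 176 in the pooled list (rank 2248). Its summit was 909 bp and 919 bp upstream, a mean of 914 ± 7.07 bp (SD, n = 2). Between this peak and daf-10 lies rpb-12, which encodes a small subunit shared by RNA polymerases and ends 122 bp upstream of daf-10 on the same strand. The far summit is 257 bp upstream of rpb-12 and 342 bp upstream of aly-2, an RNA export factor gene on the other strand, so it was in 3 windows and daf-10 was the most distant of the 3 genes. The near peak was in the window of daf-10 alone. Its signal was 32.8 in replicate 1 (rank 8189), 64.0 in replicate 2 (rank 3592) and 96.0 in the reproducible list (rank 4889 of 4963), just inside the end of that list at 94.9. In replicate 1 it was thus outside the best 4963 peaks and its deposited −log10 q-value was 0.611, whereas in replicate 2 it was at the list's upper limit of 3.94. Its summit was 68 bp upstream in replicate 1, 95 bp in replicate 2 and 100 bp in the pooled list.

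che-11 (WBGene00000490, chromosome V, 12144244 to 12150707) encodes the IFT140 subunit and was the only one of the 5 listed genes without a reproducible peak. A peak lay at its 5′ end in every list that includes background regions. The signal was 43.2 in replicate 1 (rank 5698), 36.1 in replicate 2 (rank 7102) and 79.0 in the pooled list (rank 6150), where the reproducible set ends at 94.9. The peak was below the end of the best peaks in both replicates, and its −log10 q-values were 1.40, 1.43 and 1.59. The summit was 6 bp upstream of the 5′ end in replicate 1, 6 bp downstream of it in the 5′ untranslated region in replicate 2, and 72 bp upstream in the pooled list. With these lists taken whole, all 5 listed IFT-A genes had a promoter summit, though ift-139 did not. A promoter summit was also found at 29.8% of coding genes in the pooled list, 30.2% in replicate 1 and 32.6% in replicate 2. A similar weak peak 2219 bp upstream (pooled signal 73.3, rank 6751) lay in the window of the divergent gene C27A7.8.

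**Figure D1:**
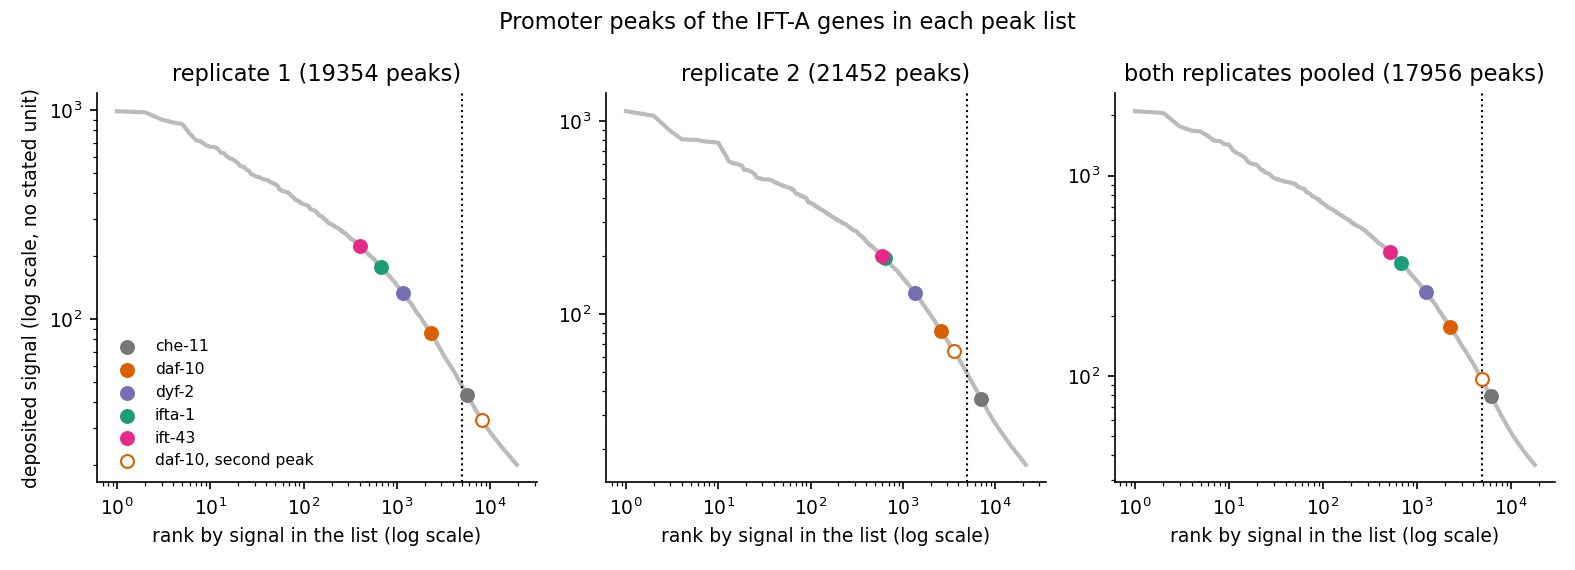
Deposited signal (y axis, log scale, no stated unit) against rank (x axis, log scale) for all peaks of replicate 1, replicate 2 and the pooled replicates (grey line), with the strongest promoter peak of each IFT-A gene (filled points) and the near peak of daf-10 (open point). The dotted line is rank 4963, and che-11 lies to the right of it in all 3 panels, while the near peak of daf-10 changes sides.

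The order of the promoter peaks by signal was ift-43, ifta-1, dyf-2, daf-10 and che-11 in each replicate. Signals divided by the median of their own list averaged 7.68 ± 0.154 at ift-43, 6.80 ± 1.11 at ifta-1, 4.78 ± 0.334 at dyf-2, 3.05 ± 0.196 at daf-10 and 1.43 ± 0.0451 at che-11 (SD, n = 2 each). Neighbours in this order were separated by more than their SDs except ift-43 and ifta-1, whose difference is within the SD of ifta-1. These are strengths of peaks and not of single genes, because the summits at ift-43, dyf-2 and the far site of daf-10 lie in windows of other genes too. By likeness of percentile rank over the 2 replicate lists, the nearest of 4752 to 4754 genes with promoter peaks in both lists were syx-5 for ift-43 (0.115 percentage points in all), cup-14 for ifta-1 (0.102), C27A2.8 for dyf-2 (0.156) and pqbp-1.1 for daf-10 (0.156). With so many genes compared, a neighbour this close is found for each.

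The peaks were at the 5′ ends and upstream, not in the gene bodies. Inside the IFT-A genes beyond the promoter window there was no reproducible summit. The whole pooled list held 4 such summits, 3 in dyf-2 and 1 in ifta-1, of which the highest ranked 8958. Replicate 1 held 4 with a best rank of 9414, and replicate 2 held 5 with a best rank of 13924. All were below the best 4963. The nested genes flp-1 (a neuropeptide gene inside daf-10) and sid-2 (a gene for uptake of double-stranded RNA inside dyf-2) lie in these bodies.

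**Figure D2:**
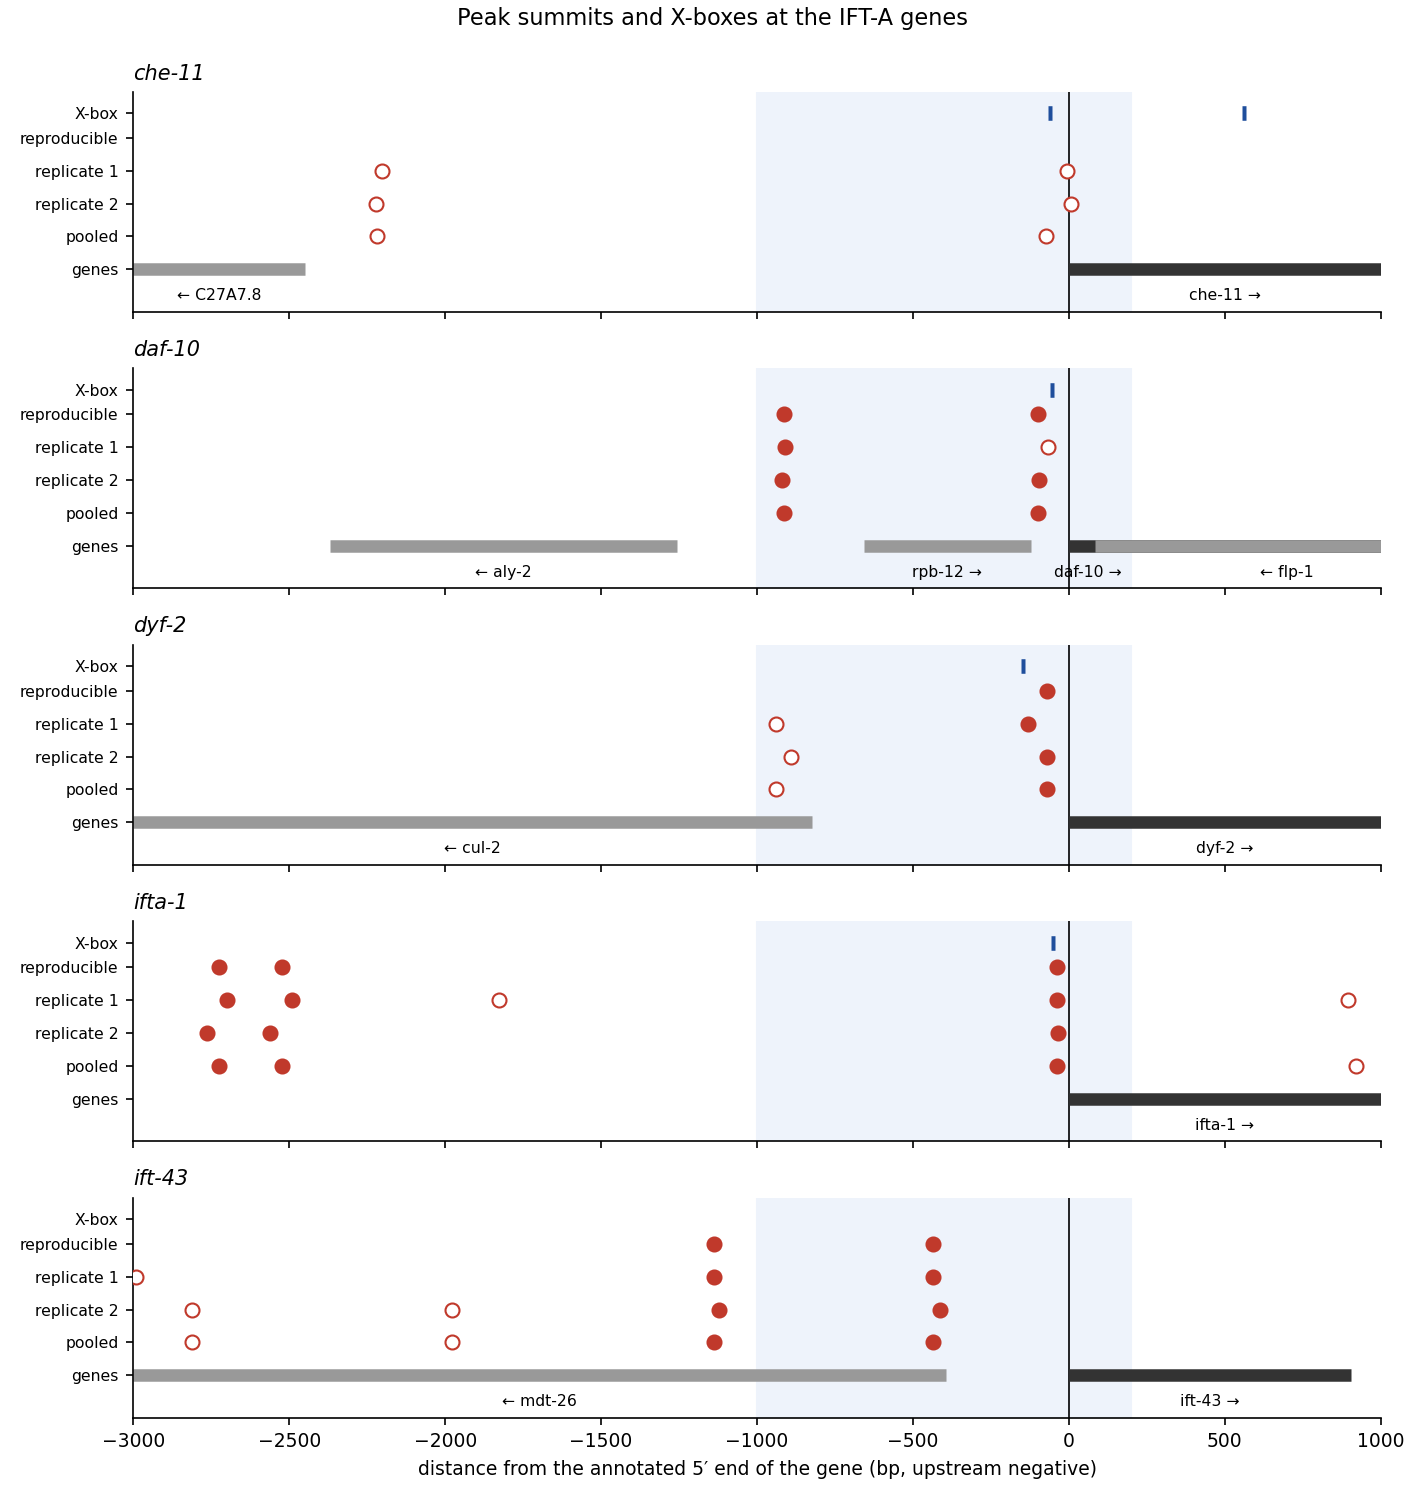
Summits and X-boxes around the 5′ end of each IFT-A gene, shown by distance from that end (x axis, bp, upstream negative), 1 row for each peak list. Filled circles are reproducible peaks, their pooled counterparts or a replicate's best 4963 peaks, open circles are weaker peaks, blue marks are X-box matches, the shaded band is the promoter window, and bars are coding genes with arrows for their direction. Filled circles stand beside the X-box at ifta-1, dyf-2 and daf-10, except that the circle of replicate 1 beside the site of daf-10 is open. Only open ones do so at che-11, and ift-43 has no X-box.

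X-boxes were found close to the 5′ end of 4 of the 5 genes, where 1.89% of coding genes have a match starting within 200 bp upstream. This distance was chosen after the positions were seen. In the whole promoter window the same 4 genes had a match, against 10.2% of coding genes. On the strand that reads as the consensus, the sites were as follows, with that of ift-139 added as the other known IFT-A gene.
ifta-1, chrX:5552796-5552809, plus strand: ATTGCCATGGCAAC
ift-139, chrIII:6039509-6039522, plus strand: ATTGCCATGGTAAC
che-11, chrV:12150761-12150774, minus strand: ATCTCCATGGCAAC
daf-10, chrIV:9146260-9146273, minus strand: ATCTCCATAGCAAC
dyf-2, chrIII:13686585-13686598, plus strand: GTTGCCTTGGTAAC
Counting from 1 at the 5′ end of the first-named site, che-11 differs from daf-10 by G9A and from ifta-1 by C3T and T4G. The change from ifta-1 to ift-139 is C11T. The site of dyf-2 differs from ift-139 by G1A and T7A, and from ifta-1 by G1A, T7A and T11C. It has 5 differences from che-11 and 6 from daf-10. The sites start 57 bp upstream of the gene at ifta-1, 62 bp at daf-10, 67 bp at che-11 and 153 bp at dyf-2. No exact match was present in the window of ift-43, where the closest stretches had 1 mismatch. All 5 windows held a match when 1 mismatch was allowed, as did 83.0% of coding windows, so that count says little about these genes.

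Summits stood close to the X-box at ifta-1 in both replicates, and less steadily at the other genes. From summit to the centre of the X-box it was 12 bp in replicate 1, 14 bp in replicate 2 and 13 bp in the pooled list at ifta-1. At dyf-2 these distances were 16, 77 and 77 bp, so only replicate 1 placed its summit next to the site. At the near peak of daf-10 they were 13, 40 and 45 bp, and at its far peak 854, 864 and 860 bp. At che-11 the weak summits were 54, 66 and 12 bp from the site. Within 100 bp of the strongest summit an X-box was present for 2 of the 4 called genes, dyf-2 and ifta-1, where 3.49% of all 4963 reproducible summits have one. Counting any reproducible promoter summit of the gene, a rule added after the data were seen, daf-10 made it 3 of 4.

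**Figure D3:**
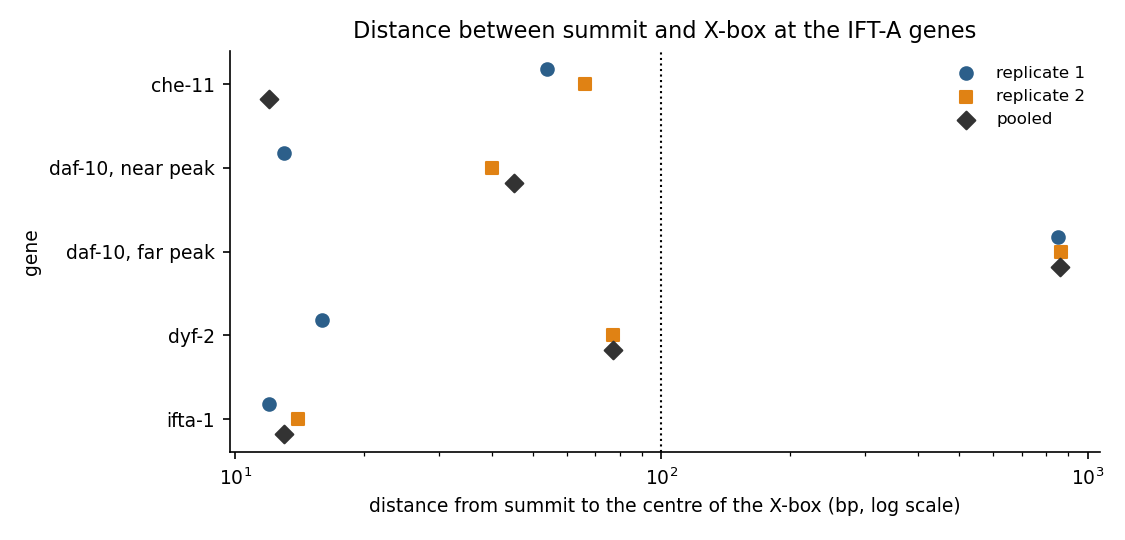
Distance in bp (x axis, log scale) from summit to the centre of the X-box for the IFT-A genes that have one, in replicate 1 (circles), replicate 2 (squares) and the pooled list (diamonds). All points but those of the far peak of daf-10 are left of the dotted line at 100 bp, and those of ifta-1 are the closest together, from 12 to 14 bp.

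Most coding genes with an X-box near the 5′ end were not called. Of the 378 coding genes with such a site, 78 were called (20.6%), and of the 19595 without one, 2674 (13.6%). Over the whole promoter window the shares were closer, at 301 of 2040 genes with an X-box (14.8%) and 2451 of 17933 without one (13.7%). Among the listed IFT-A genes with the site, daf-10, dyf-2 and ifta-1 were called and che-11 was not. Of the 14 IFT-B genes, 7 had the site, and 6 of those 7 were called. ift-139 encodes the remaining known IFT-A subunit, a protein of tetratricopeptide repeats. It carries its X-box 52 bp upstream, and no list, background regions included, held a summit in its promoter window. ift-43 shows the converse, a strong peak with no exact X-box in the window. The pooled summit of that peak is 42 bp inside mdt-26 and 437 bp from ift-43, so it may not belong to ift-43.

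Other motifs were not shared by the 4 called genes. TAAACA lay in the windows of che-11, daf-10 and dyf-2 (3 of 5, against 63.6% of all coding windows). Near the strongest summit it was present only at daf-10, 10 bp from the far summit (1 of 4, against 13.4% of reproducible summits). GACGC was in the windows of che-11, daf-10, dyf-2 and ift-43 (4 of 5, against 52.5%), and near the summit only at ift-43, 36 bp away (1 of 4, against 30.7%). GAGAGA was in 0 of 5 windows and near 0 of 4 summits, against 50.9% of windows and 34.6% of summits. GC content within 100 bp of the summit was 54.7% at ift-43, 44.8% at ifta-1, 42.3% at dyf-2, 38.8% at the far and 39.8% at the near peak of daf-10, and 36.3% at che-11. Over all reproducible summits the median was 40.8%, with an interquartile range of 35.8 to 46.3%, so the peak in coding sequence of mdt-26 at ift-43 was above that range.

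IFT-A genes were set beside other transport genes under the same rule, with no test because the lists are short and were chosen with earlier results known. The 4 called of 5 IFT-A genes compare with 10 of 14 IFT-B genes, 3 of 7 transport motor genes and 5 of 7 genes of the BBSome, a cargo adaptor of the cilium. The IFT-A list of 5 leaves out ift-139, which was not called. With the best peaks of replicate 2 the counts were 4, 10, 2 and 3 in the same order of lists. The called IFT-A genes had pooled signals from 176 to 414 with a median of 315 and ranks from 514 to 2248. IFT-B genes had signals from 119 to 447 with a median of 168, and all called coding genes had a median of 189. The highest IFT-B signals were at osm-5 (447), dyf-11 (411) and ift-20 (234), and che-13, dyf-1, dyf-13 and osm-1 were not called. In the highest 2481 reproducible peaks all 4 IFT-A genes were still called, beside 5 IFT-B genes, 2 BBSome genes and 0 motors, where 8.08% of coding genes were. There daf-10 was called by its far peak (rank 2248), as its near peak ranked 4889. The strongest summits at ift-43, dyf-2 and daf-10 also lie in windows of other genes, and that at ifta-1 does not.

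**Figure D4:**
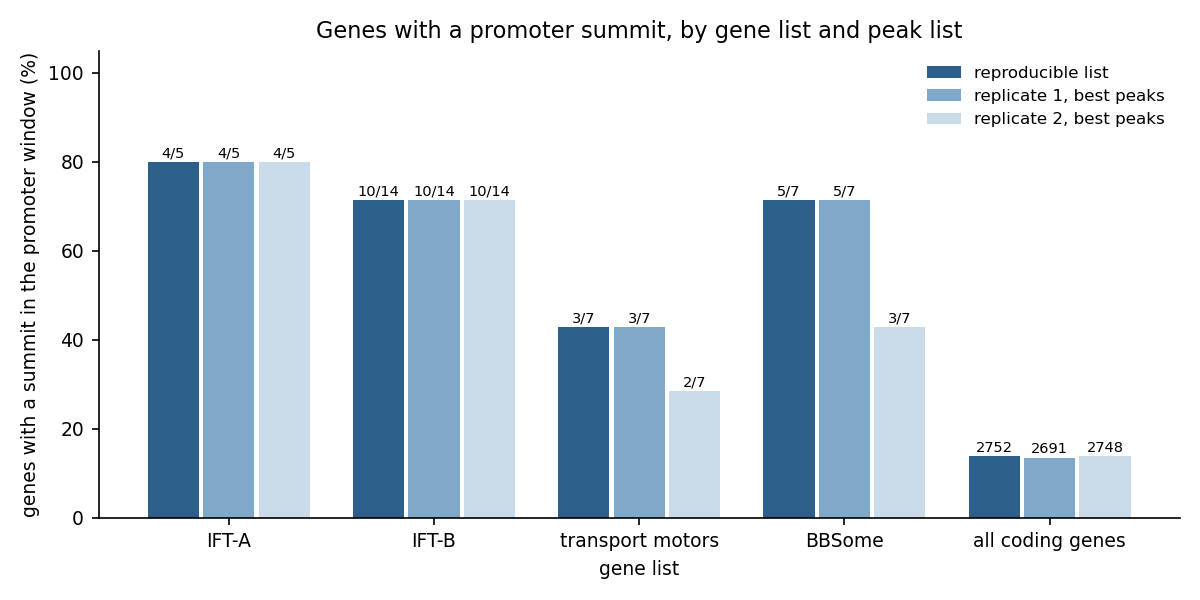
Share of genes with a summit in the promoter window (y axis, percent) for IFT-A, IFT-B, transport motor and BBSome genes and all coding genes (x axis), in the reproducible list and in the best 4963 peaks of replicate 1 and of replicate 2 (bars). Numbers above the bars are genes called of genes listed (for all coding genes, those called of 19973), and IFT-A stands at 4 of 5 in all 3 lists.

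The place of the IFT-A summits was also set beside that of the IFT-B summits, as a description of short lists. An X-box lay within 100 bp of the strongest summit at 2 of 4 called IFT-A genes and 8 of 10 called IFT-B genes. It did so at 4 of 5 called BBSome genes and 2 of 3 called motor genes, against 3.49% of reproducible summits. With an X-box near the 5′ end, 3 of 4 BBSome genes and the 1 motor gene were called, where 20.6% of such coding genes were. The strongest summit was 13, 77 and 860 bp from the X-box near the 5′ end at ifta-1, dyf-2 and daf-10, and 7 to 54 bp (median 23 bp) at 6 IFT-B genes. The 860 bp is from the far peak of daf-10, whose near reproducible summit was 45 bp from the site. At dyf-2 the distance in replicate 1 was 16 bp. The median distance of the strongest summit from the 5′ end was 253 bp over the 4 IFT-A genes (range 37 to 915 bp), 46 bp over the 10 IFT-B genes and 233 bp over all called coding genes. When only summits in the window of 1 coding gene were counted, a rule added after the data were seen, the call held at 2 of 5 IFT-A genes (daf-10 by its near peak, and ifta-1) and 9 of 14 IFT-B genes, where 7.65% of coding genes were called. By the nearest coding 5′ end the counts were 3 of 5, without ift-43, and 11 of 14, where 18.1% of coding genes were called. In the genome 615 of 2207 promoter summits (27.9%) lay in several windows. The fkh-8 gene itself had no summit in its body or within 3000 bp upstream in any list.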

How the data were processed

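ChIP-seq of tagged FKH-8 in 2 biological replicates was analysed from narrowPeak lists on ce11. Per the labels and the deposited file lists, there was 1 list for each replicate, 1 for the pooled replicates and 1 of IDR-thresholded peaks, and the replicate and pooled lists include background regions while the thresholded list is the top of the pooled one. Lists on ce10 were not used here. The aligner, peak caller and IDR cutoff are not given in the sources used here. The authors deposited a signal value for each peak, with unstated scaling, and the −log10 of a q-value that shares an upper limit within each list. They also deposited each summit's distance from the peak start, and coordinates were converted to 1-based. Read depth is unknown, so values are given per replicate without counting intervals.

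Genes came from Ensembl release 115 and sequence from the RefSeq genome of the same build. Peaks were ranked by signal, and the best 4963 peaks of each replicate were taken to match the reproducible list. Annotated 5′ ends in worms are often trans-splice sites. Summits were assigned to promoter windows, and motifs were searched on both strands with Python 3.11.15, numpy 2.4.6 and pandas 2.3.3. The assignment and motif code was tested on simulated data. Nothing was tested for significance, as there is 1 group and no control in the files used. The members, gene lists and rules were chosen with earlier results of these data known. All 5 members were named whatever their values, with ift-139, fkh-8, genes sharing a member's summit and, for each called member, the gene most alike in percentile rank over both replicates. Alternatives changed the window, the peak list, the gene's 5′ end, the assignment rule, the X-box mismatches and the distance to the summit.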

Additional observations from a re-analysis of the deposited data

How the results depend on the processing

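The count of 4 called IFT-A genes was the same in the following settings, each given with the share of all coding genes called. Windows were from 500 bp upstream to 100 bp downstream (10.7%) or 2000 bp upstream to 500 bp downstream (18.8%). In the narrower window daf-10 was called by its near peak alone, rank 4889 of 4963. The count also held with any base of the peak in the window (15.1%), any transcript's 5′ end (15.0%) and the start codon (13.8%). It held with the highest 2481 peaks (8.08%), without replicate 1 (13.8%) and without replicate 2 (13.5%) (4 to 4). The count was 5 with 9926 pooled peaks (21.3%) or all pooled peaks (29.8%), which add che-11. It was 3 by the nearest coding 5′ end (18.1%) and 2 with summits in 1 window alone (7.65%). The called coding genes, 2752 in the reproducible list, numbered 1613 with the highest 2481 peaks, 4251 with 9926 pooled peaks, 5950 with all pooled peaks and 1527 with summits in 1 window alone, and 2691 to 2748 with a replicate left out. Called IFT-B genes numbered 5 with the highest 2481 peaks and 10 with either replicate left out. An X-box lay within 50 bp of the strongest summit at 1 of 4 called IFT-A genes, and at 2 within 200 bp or with either replicate left out. With 1 mismatch allowed all 5 windows held an X-box, against 83.0% of coding windows. The causes were not tested. The pairing of replicates plays no part, and no paired analysis was possible because there is 1 group and no test. Unknown depth, 2 replicates and shared promoters limit the values.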
